A study of Mus musculus with 26 samples.

Results

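Recruited and resident macrophages of the mouse lung are compared here 7 days after lipopolysaccharide (LPS), the endotoxin of Gram-negative bacteria. The recruited group (BM) holds the 3 libraries labelled bone marrow-derived macrophages at day 7, BM_day7.1 to BM_day7.3. The resident group (AM) holds the 4 libraries labelled resident alveolar macrophages at day 7, AM_day7.1 to AM_day7.4. They were taken by their labels and are 7 of the 26 libraries of the series, whose other 19 are AM without LPS and both cell types 1 and 3 days after it. Both groups came from lungs exposed to LPS, given by a route that the series text abbreviates as IT, so LPS exposure is common to both groups. Genotype, strain, LPS dose, the age of the mice of the day 7 groups and the markers used to separate the cells are not given in the sources used here. The labels of AM without LPS call them Young, with no age. Every difference is BM minus AM.

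Alveolar macrophages settle in the air spaces around birth, maintain themselves locally, and clear surfactant lipid under the control of GM-CSF and the nuclear receptor PPAR-gamma. When the airway is inflamed, monocytes made in the bone marrow enter the lung and become macrophages beside the residents. Such recruited cells carry the integrin CD11b (Itgam) and, with time in the air space, can take on genes of the resident cell.

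RNA was sequenced from poly-A selected, stranded libraries, and the values are read counts per gene. The 4 AM libraries held 9950513 to 27513205 counts and the 3 BM libraries 10054930 to 24729188. Levels are given in CPM, the unit that divides counts by library size (here TMM-adjusted) and so puts libraries of different depth on 1 scale, always in the order BM_day7.1 to BM_day7.3 and AM_day7.1 to AM_day7.4, with n = 3 and 4. The labels do not say whether libraries of a group came from separate mice, so p-values here cover the spread among these libraries only, which may be technical. BM_day7.1 and BM_day7.2 were more alike than either was to BM_day7.3: 70.8% of genes with at least 2000 counts over the pair lay within 1.1-fold between the first 2, against 31.8% and 29.7% with the third, and 54.9% to 71% between AM libraries. BM_day7.1 and BM_day7.2 still differed by more than sampling noise (chi-square per degree of freedom 14, against 7.85 to 24.6 for AM pairs) and were kept as separate libraries. The labels give BM_day7.1 and BM_day7.2 library numbers apart from those of the other 5, and do not say what these numbers mark, so this split within BM cannot be told apart from them. Xist was at 374 to 524 CPM in BM and 280 to 328 CPM in AM, and 4 Y-linked genes summed to at most 4.09 CPM in any of the 7 libraries. In bulk RNA, fewer cells of a type and less RNA per cell cannot be told apart.

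The balance of genes higher and lower in recruited macrophages depended on the fit. In a fit of all 26 libraries, 254 of 17143 genes were called higher in BM (1.48%) and 49 lower (0.286%), together 1.77%, at an adjusted p below 0.05, by edgeR's quasi-likelihood test. The median difference over all 17143 genes was 0.03 on the log2 scale. That fit shares 1 estimate of spread with the earlier days, whose libraries varied more. With the 7 day 7 libraries fitted alone, 14454 genes were tested and 1616 were called higher (11.2%) and 1332 lower (9.22%), together 20.4%. Of the 254 genes called higher, 247 were also called in the 7-library fit, as were 43 of the 49 called lower. Without BM_day7.3, the 26-library fit called 186 genes higher and 14 lower, and the 7-library fit 1844 and 1794 of 15300. With BM_day7.3 as the only BM library, the 7-library fit called 1756 higher and 1974 lower of 16281, where the spread comes from the 4 AM libraries alone and the lone library is assumed to vary like them. All BM libraries lay above all AM libraries for 15.5% of the 17143 genes, and below them for 14.2%. Below, "called" refers to the 26-library fit, ± is the standard error of the log2 difference, and a count for the 7-library fit is named as such. Every list count below is to be read beside the shares over all genes given here for the same fit. Where a named gene was not called once BM_day7.3 was left out, its adjusted p without that library is given. Calls that rest on BM_day7.1 and BM_day7.2 are not marked in this way. With BM_day7.3 as the only BM library, the log2 difference was 1.68 for Plac8 and 0.99 for H2-Eb1, against 5.16 and 3.07 without it. For F13a1 it was larger, at 6.47 against 4.54.

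The 3 genes used to check the labels separated the groups. Itgam, the CD11b chain of complement receptor 3, was at 317, 311 and 591 CPM in the BM libraries and 18.2, 23.8, 10.2 and 12.3 CPM in the AM libraries, a difference of log2 4.65 ± 0.43, adjusted p = 3.7e-07. Apoe, which carries lipid out of macrophages, was at 8700, 8958 and 26340 CPM in the BM libraries and 690.3, 574, 359.9 and 474 CPM in the AM libraries (log2 4.81 ± 0.57, adjusted p = 1.6e-05). Lpl, the lipoprotein lipase of resident cells, was at 2263, 2369 and 815 CPM in the BM libraries and 5760, 7076, 6567 and 6414 CPM in the AM libraries (log2 -1.83 ± 0.31, adjusted p = 0.00064). None of the 3 overlapped between groups, and BM_day7.3 was the most extreme BM library for each. The resident label was checked further: Itgax (CD11c) was at 1044, 989 and 452 CPM in BM and 1446, 1673, 1554 and 1479 CPM in AM, and Siglecf, the eosinophil and alveolar macrophage lectin, at 177, 178 and 24.1 and 441, 548, 561 and 525 CPM. The AM libraries thus carried the CD11c and Siglec-F pair by which alveolar macrophages are recognised. BM_day7.1 and BM_day7.2 carried both genes at lower levels, and BM_day7.3 carried the least of each.

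**Figure D1:**
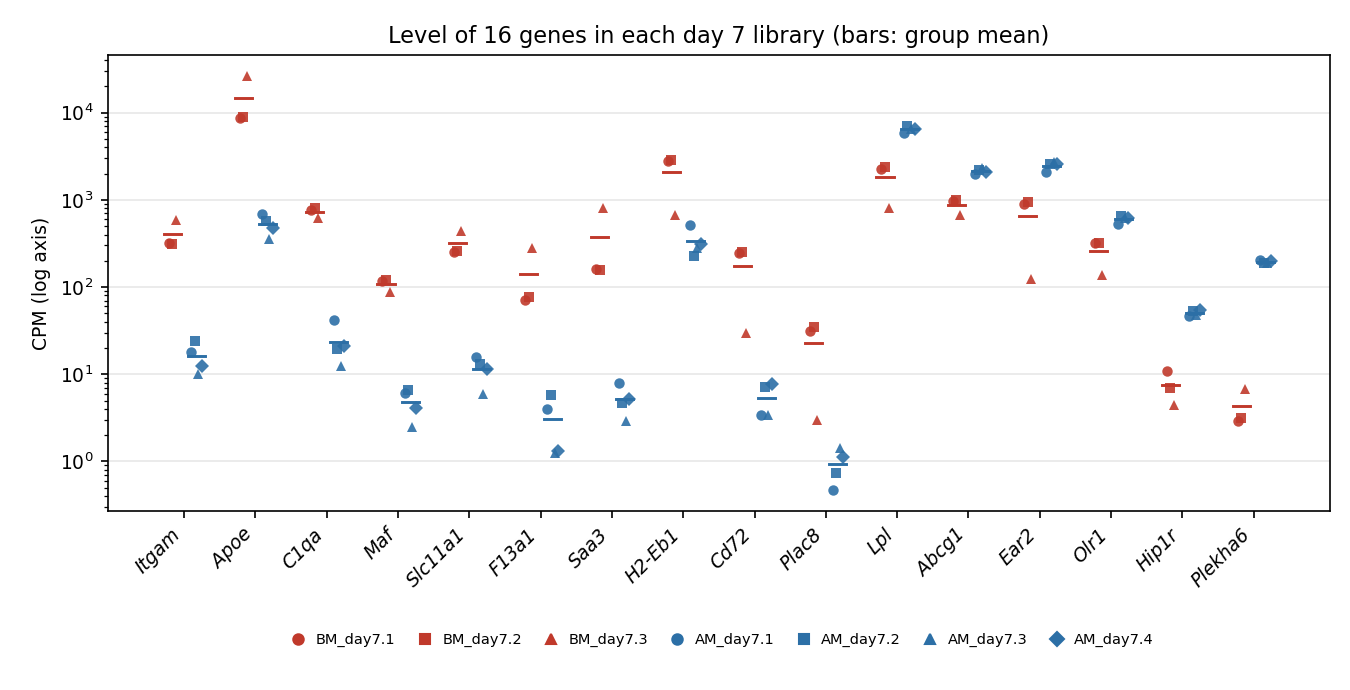
Level of 16 genes in each day 7 library (CPM, log axis), with a marker for each library and a bar at each group's mean. BM_day7.3 lies apart from the other BM libraries for Apoe, Saa3, F13a1, Cd72, Plac8 and Ear2, while C1qa is level across the 3.

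For the called genes with a RefSeq promoter (193 of the 254 called higher and 38 of the 49 called lower), the 250 bases before the transcription start were read from the GRCm38.p6 table and searched on both strands for short motifs. Some genes have more than 1 window. The 7 shown belong to genes the results turn on: 2 of the neighbouring C1q genes, the label gene Itgam, a Toll-like receptor, 2 interferon-stimulated genes and Plekha6. Plekha6 was abundant in AM at day 7, close to absent from BM, and also low in AM without LPS. Each of the 7 windows holds at least 1 match, so they do not represent promoters at large. Capitals mark matches, on either strand, to GAGGAAG (a core bound by PU.1), the ISRE core (GAAA, any 2 bases, GAAA, bound by interferon regulatory factors) or TGCTGA (a core bound by MAF proteins).
C1qb, chr4:136886201-136886450, minus strand: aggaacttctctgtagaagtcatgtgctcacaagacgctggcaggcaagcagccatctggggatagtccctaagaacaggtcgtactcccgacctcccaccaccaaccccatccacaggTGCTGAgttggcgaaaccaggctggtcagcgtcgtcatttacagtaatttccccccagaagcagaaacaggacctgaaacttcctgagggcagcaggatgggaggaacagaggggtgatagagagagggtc
C1qc, chr4:136892915-136893164, minus strand: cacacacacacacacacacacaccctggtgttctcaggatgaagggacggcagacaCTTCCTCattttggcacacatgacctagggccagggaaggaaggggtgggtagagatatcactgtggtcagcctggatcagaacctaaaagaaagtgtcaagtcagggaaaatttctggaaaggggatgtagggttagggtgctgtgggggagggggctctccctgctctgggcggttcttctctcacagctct
Itgam, chr7:128062390-128062639, plus strand: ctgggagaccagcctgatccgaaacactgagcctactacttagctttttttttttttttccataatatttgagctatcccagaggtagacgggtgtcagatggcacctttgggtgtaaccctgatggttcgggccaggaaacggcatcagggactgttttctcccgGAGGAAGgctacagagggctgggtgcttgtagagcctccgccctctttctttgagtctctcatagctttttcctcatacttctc
Tlr9, chr9:106222348-106222597, plus strand: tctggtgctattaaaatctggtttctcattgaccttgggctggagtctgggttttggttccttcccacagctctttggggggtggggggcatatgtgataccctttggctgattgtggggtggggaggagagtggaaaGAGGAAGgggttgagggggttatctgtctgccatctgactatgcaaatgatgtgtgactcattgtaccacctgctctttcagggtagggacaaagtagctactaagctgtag
Oas3, chr5:120777660-120777909, minus strand: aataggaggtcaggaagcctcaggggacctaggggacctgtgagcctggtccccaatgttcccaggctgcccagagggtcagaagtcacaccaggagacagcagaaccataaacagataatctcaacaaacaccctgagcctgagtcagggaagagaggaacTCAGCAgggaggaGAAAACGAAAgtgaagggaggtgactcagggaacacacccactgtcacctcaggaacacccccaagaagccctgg
Ifi213, chr1:173599273-173599522, minus strand: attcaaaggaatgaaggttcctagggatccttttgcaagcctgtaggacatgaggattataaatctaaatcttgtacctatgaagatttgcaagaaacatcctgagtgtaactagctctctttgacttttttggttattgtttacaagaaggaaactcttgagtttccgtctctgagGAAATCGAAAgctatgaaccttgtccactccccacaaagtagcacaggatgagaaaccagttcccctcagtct
Plekha6, chr1:133245847-133246096, plus strand: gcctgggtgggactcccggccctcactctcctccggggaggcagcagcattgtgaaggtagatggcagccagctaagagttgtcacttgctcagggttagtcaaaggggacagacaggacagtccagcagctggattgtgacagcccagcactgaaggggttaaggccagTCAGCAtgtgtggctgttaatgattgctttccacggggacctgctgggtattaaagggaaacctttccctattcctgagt
GAGGAAG stood at position -84 in Itgam, -112 in Tlr9 and, on the opposite strand, -194 in C1qc, counted from the start site. The ISRE core stood at -75 in Oas3 and -73 in Ifi213. TGCTGA stood at -131 in C1qb and, on the opposite strand, at -88 in Oas3 and -80 in Plekha6, and no match overlapped another. Over all 32851 promoter windows of this length, GAGGAAG was found in 10.6%, the ISRE core in 2.98% and TGCTGA in 16.1%. In the 248 windows of genes called higher the shares were 14.5%, 4.84% and 13.7%, and in the 50 windows of genes called lower 14%, 2% and 16%. GAGGAAG was thus about as frequent among genes called lower as among those called higher. A match is a description of these letters and not a bound site, and the absence of one says nothing about the factor.

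The C1q genes encode the chains of the molecule that starts the classical complement pathway, and tissue macrophages are a main source of it. They lie side by side on the minus strand of chromosome 4, from C1qb (136880129 to 136886187) through C1qc (136889804 to 136893065) to C1qa (136895917 to 136898803), and all 3 were called higher. C1qb was at 955, 934 and 855 CPM in the BM libraries and 62.4, 22.5, 10.8 and 20.9 CPM in the AM libraries (log2 4.97 ± 0.53, adjusted p = 2.7e-06), and C1qa (4.95 ± 0.50) and C1qc (4.89 ± 0.61) differed by as much on the log2 scale. The 3 BM libraries were nearly level for each, while AM_day7.1 was the highest AM library. Of the 20 complement genes tested, 5 were called higher and none lower, beside 1.48% and 0.286% of all genes; the other 2 were Itgam and C3ar1, the receptor for the C3a fragment, at 186, 204 and 305 CPM in the BM libraries and 14, 7.98, 3.7 and 4.06 CPM in the AM libraries (log2 4.95 ± 0.68, adjusted p = 8.9e-05). The receptors for C5a went the other way without a call in the 26-library fit: C5ar1 was at 199, 196 and 127 CPM against 278, 319, 379 and 334 CPM (log2 -0.91 ± 0.17, adjusted p = 0.0043 in the 7-library fit). C3 itself overlapped between groups, at 1037, 1007 and 1298 CPM against 913, 1547, 1045 and 1183 CPM. The median of the complement genes was 0.01, beside 0.03 for all genes.

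Genes of interstitial and other tissue macrophages had a median difference of 2.59 on the log2 scale. Of 25 tested, 9 were called higher and none lower, and the 7-library fit called 14 higher and 1 lower, beside 11.2% and 9.22% of all genes. Maf, a transcription factor of tissue macrophages, was at 116, 119.9 and 87 CPM in the BM libraries and 6.11, 6.62, 2.49 and 4.06 CPM in the AM libraries (log2 4.48 ± 0.47, adjusted p = 6.2e-07). Stab1, a scavenger receptor of tissue macrophages, was at 312, 296 and 336 CPM against 20.1, 21.5, 4.82 and 8.73 CPM (log2 4.50 ± 0.52, adjusted p = 8e-06). No library of either group crossed into the other for either gene. Ms4a7, a membrane protein of the same cells, was at 173, 192 and 98.5 CPM against 8.36, 6.91, 3.96 and 8.43 CPM (adjusted p = 0.047, adjusted p = 0.099 without BM_day7.3). Fcrls and Tmem119, both known from microglia, showed differences of 3.86 and 4.45 without a call; Tmem119, at 78.1, 83.3 and 19.3 CPM against 4.25, 3.99, 1.78 and 0.812 CPM, was called in the 7-library fit (adjusted p = 0.0095 in the 7-library fit). Lyve1 and Folr2, which mark perivascular interstitial macrophages, were at or below 1.34 CPM in every library. Mertk, the receptor for dying cells, was on the lower side of BM, at 303, 308 and 235 CPM against 457, 449, 518 and 498 CPM (log2 -0.77 ± 0.11, adjusted p = 0.00093 in the 7-library fit). Adgre1 (F4/80) was at 793, 801 and 815 CPM against 350.1, 352, 394 and 339 CPM (log2 1.15 ± 0.08, adjusted p = 1.1e-05 in the 7-library fit), with a narrow spread within each group.

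Many monocyte genes were higher in recruited cells at day 7. Of 25 tested, 11 were called higher and none lower, with a median of 1.53. The 7-library fit called 13 higher and 1 lower, beside 11.2% and 9.22% of all genes. F13a1, the factor XIII chain of monocytes, was at 70.6, 76.3 and 282 CPM in the BM libraries and 4, 5.74, 1.27 and 1.32 CPM in the AM libraries (log2 5.50 ± 0.80, adjusted p = 0.00019). Ly6c2, the marker of inflammatory monocytes, was at 27.9, 26.6 and 80.5 CPM against 0.582, 1.36, 0.964 and 1.52 CPM (log2 5.39 ± 0.61, adjusted p = 5.8e-06). In both, BM_day7.3 held several times the level of the other BM libraries. Cx3cr1, the fractalkine receptor, was at 230.3, 250.2 and 92.2 CPM against 16.8, 11.2, 5.73 and 15 CPM (log2 3.97 ± 0.81, adjusted p = 0.0065), Plac8 at 31.2, 34.8 and 2.99 CPM against 0.472, 0.73, 1.42 and 1.12 CPM (log2 4.66 ± 0.65, adjusted p = 8.9e-05) and Ms4a4c at 23.8, 23.5 and 3.19 CPM against 2.29, 0.73, 1.32 and 0.609 CPM (log2 3.72 ± 0.70, adjusted p = 0.0024). For these 3, BM_day7.3 was instead the lowest BM library, so the monocyte genes did not order the BM libraries in 1 way. The list holds genes of the patrolling monocyte that were near even: Nr4a1, which those cells need, was at 973, 961 and 668 CPM against 790, 839.9, 1003 and 821 CPM (log2 0.01 ± 0.22, adjusted p = 1). Ace and Spn overlapped between groups, and Itgal, the CD11a chain, was on the AM side at 434, 441 and 379 CPM against 542, 607, 589 and 613 CPM (log2 -0.50 ± 0.09, adjusted p = 0.0037 in the 7-library fit). Reads of Ly6c2 may be shared with its near-identical neighbours Ly6c1 and Ly6i, so its level is uncertain; of 7 Ly6 genes it was the only one called.

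Some receptors that guide cells into tissue were higher. Ccr2, the receptor for the monocyte attractant Ccl2, was at 285, 310.3 and 94.6 CPM in the BM libraries and 62.4, 26, 33.5 and 45 CPM in the AM libraries (log2 2.46 ± 0.58, adjusted p = 0.023). Cxcr4, which holds cells in the marrow, was at 700.3, 693 and 551 CPM against 300.4, 319.8, 387 and 336 CPM (log2 0.95 ± 0.23, adjusted p = 0.022). Of 18 chemokine and homing receptors 5 were called higher, Cx3cr1 among them, and none lower. Their median was 177%, 163% and 92.4% of the AM mean in BM_day7.1 to BM_day7.3, and 9 of the 18 lay below the AM mean in BM_day7.3. Fpr1 and Fpr2, receptors for formyl peptides of bacteria, were on the AM side, Fpr1 at 231, 229.5 and 55.4 CPM against 404, 475, 494 and 493 CPM (log2 -1.44 ± 0.39, adjusted p = 0.057). Among 19 integrins, Itga4, a chain of VLA-4, was at 232, 203 and 299.8 CPM against 98.7, 101, 100.5 and 115 CPM (adjusted p = 0.029, adjusted p = 0.24 without BM_day7.3) and was called with Itgam. The 7-library fit called 9 integrins higher, among them Itgav, Itga6, Itga9, Itgb1, Itgb5 and Itgb7, and 2 lower. Itgb2, the chain shared by CD11a, CD11b and CD11c, overlapped between groups at 1755, 1773 and 2169 CPM against 2140, 2188, 2053 and 2088 CPM.

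Of 22 chemokine ligands, Cxcl16, a membrane-bound ligand for Cxcr6, was the only one called, at 465, 448 and 369 CPM against 93.3, 122, 94.3 and 106 CPM (adjusted p = 0.035, adjusted p = 0.096 without BM_day7.3). The monocyte attractants Ccl2 and Ccl7 were higher in every BM library, Ccl2 at 46.4, 56.9 and 55.9 CPM against 11.4, 8.56, 15.3 and 11.3 CPM (log2 2.18 ± 0.19, adjusted p = 2.9e-05 in the 7-library fit) and Ccl7 at 14.2, 16.2 and 28.2 CPM against 3.78, 2.09, 1.98 and 2.13 CPM (log2 2.93 ± 0.33, adjusted p = 0.00016 in the 7-library fit). Ccl3, Ccl4, Ccl5, Ccl12 and Cxcl13 were also called higher in the 7-library fit. That fit called 8 of the ligands higher and 2 lower, beside 11.2% and 9.22% of all genes. The neutrophil attractants did not separate the groups: Cxcl1 was at 159, 167 and 211 CPM against 166, 184, 161 and 177 CPM and Cxcl2 at 2223, 2275 and 1611 CPM against 1628, 2073, 2001 and 1863 CPM. Cxcl9 and Cxcl14 were on the AM side, Cxcl14 at 8.76, 7.06 and 13.8 CPM against 48, 31.9, 26.6 and 33.3 CPM (log2 -1.86 ± 0.27, adjusted p = 0.0011 in the 7-library fit).

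Genes that identify the resident alveolar macrophage stood mostly on the AM side, and how far depended on the BM library. In the 26-library fit 4 of 30 were called lower (Lpl, Abcg1, Ear2 and Olr1) and none higher, with a median difference of -1.27. As a share of the AM mean, the median of the 30 genes was 53.7% in BM_day7.1, 50.9% in BM_day7.2 and 9.52% in BM_day7.3, beside 97.1%, 97.3% and 97.7% over the 9767 genes with an AM mean of at least 5 CPM. For 23 of the 30, all AM libraries lay above all BM libraries, beside 14.2% of all genes. The 7-library fit called 5 lower and 1 higher. Without BM_day7.3 it called 21 lower and 1 higher, and with BM_day7.3 as the only BM library 25 lower and 3 higher. Over all genes these fits called 1794 of 15300 and 1974 of 16281 lower, and the second tests a single library, as above.

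Chil3, the chitinase-like protein Ym1, showed this pattern at high level, 10240, 11010 and 1729 CPM in the BM libraries and 21440, 19040, 20690 and 23430 CPM in the AM libraries (log2 -1.47 ± 0.40, adjusted p = 0.074). Krt79, a keratin of alveolar macrophages, was at 474, 480.5 and 19.98 CPM against 1040, 1402, 1423 and 1265 CPM and Plet1, a surface protein of the same cells, at 373, 388 and 19.1 CPM against 849, 762, 872 and 840.1 CPM. Marco, a scavenger receptor, was among the exceptions to the separation: at 412, 443 and 12.2 CPM against 1009, 624, 422 and 659.8 CPM, AM_day7.3 lay within the range of BM_day7.1 and BM_day7.2. Pparg, the transcription factor that maintains the resident cell, was less spread, at 159, 154 and 56.5 CPM against 241, 272, 286 and 266 CPM (log2 -1.11 ± 0.35, adjusted p = 0.14). Abcg1, a cholesterol exporter and PPAR-gamma target, was called, at 978, 995 and 661 CPM against 1974, 2192, 2286 and 2105 CPM (log2 -1.28 ± 0.24, adjusted p = 0.0014). Bhlhe40 and Bhlhe41, which support self-renewal of resident cells, overlapped between groups, Bhlhe41 at 108, 98.7 and 152 CPM against 108, 104, 91.7 and 99.9 CPM. Cd200r4 was the only one of the 30 called higher in the 7-library fit, at 162, 168 and 266 CPM against 146, 124, 133 and 122 CPM (adjusted p = 0.031 in the 7-library fit). Ear2 and Ear1 are near-identical ribonucleases between which reads may be split; Ear2 was at 899, 949 and 123 CPM against 2085, 2559, 2690 and 2547 CPM (log2 -1.91 ± 0.47, adjusted p = 0.034).

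**Figure D2:**
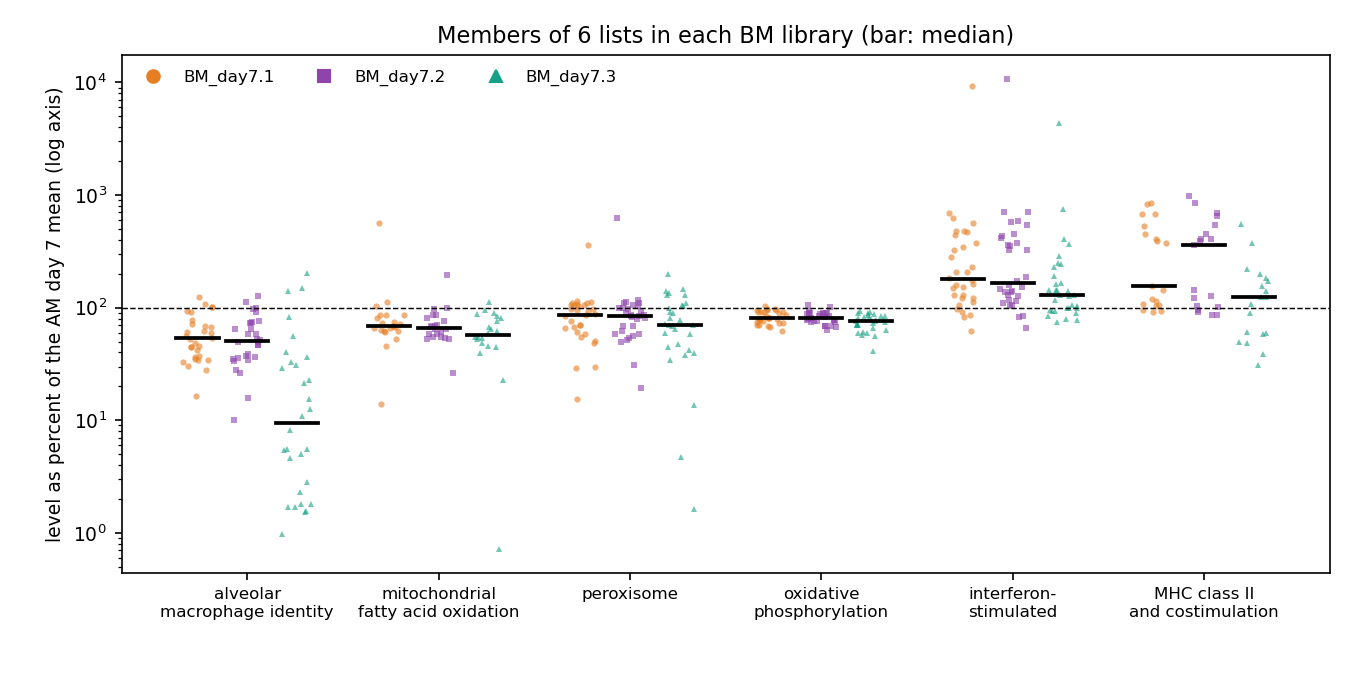
Members of 6 gene lists in each BM library as a percent of their mean in the 4 AM libraries (log axis), 1 point for each gene and a bar at the median; values of 0 are not drawn. In the alveolar macrophage identity list the bars stand at 53.7%, 50.9% and 9.52% for BM_day7.1 to BM_day7.3, and in the fatty acid oxidation list at 69.2%, 66.3% and 57.5%.

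Lipid-handling genes split between the groups. Of 19 genes of the lipid-associated macrophage, the state described in fat and plaque, 4 were called higher and 4 lower. Gpnmb, a glycoprotein of lipid-laden cells, was at 723, 712 and 1350 CPM in the BM libraries and 172, 143, 95.6 and 140.2 CPM in the AM libraries (log2 2.75 ± 0.40, adjusted p = 0.00012). Msr1, the class A scavenger receptor, was at 180.4, 206 and 371 CPM against 98.3, 41.5, 48.4 and 55.7 CPM (log2 2.05 ± 0.30, adjusted p = 8.9e-05), and Abca1, which loads cholesterol onto apolipoproteins, at 286, 257 and 599.9 CPM against 118, 145, 129 and 129.8 CPM (adjusted p = 0.0043, adjusted p = 0.15 without BM_day7.3). With Apoe these are the 4 called higher, and each was highest in BM_day7.3. Called lower were Lpl, Abcg1, Olr1, the oxidised LDL receptor, at 322, 321 and 136 CPM against 522, 651, 626 and 621 CPM (adjusted p = 0.038, adjusted p = 0.39 without BM_day7.3), and the tetraspanin Cd9, at 1637, 1724 and 1223 CPM against 2658, 2827, 2823 and 2819 CPM (adjusted p = 0.03, adjusted p = 0.27 without BM_day7.3). Trem2, the lipid receptor that defines the state, was at 187, 189.5 and 404 CPM against 91, 77.6, 64.7 and 66.5 CPM (log2 1.78 ± 0.30, adjusted p = 0.0084 in the 7-library fit). Spp1 (osteopontin) overlapped, at 422, 457 and 1835 CPM against 1011, 440.2, 475 and 597 CPM, with its highest level in BM_day7.3.

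The 2 cholesterol exporters thus differed in opposite directions, Abca1 by 1.55 and Abcg1 by -1.28. Of 16 genes of cholesterol efflux and apolipoproteins, 4 were called higher and 1 lower. Abca9, a relative of Abca1, was at 120.3, 136 and 45.3 CPM against 3.96, 2.58, 1.78 and 3.76 CPM (log2 5.06 ± 1.05, adjusted p = 0.0061), and Apobec1, which edits Apob mRNA, at 153, 165 and 154 CPM against 73.5, 72.2, 77.9 and 69.8 CPM (log2 1.10 ± 0.23, adjusted p = 0.0057). Among 25 genes of lipid uptake and storage, 1 was called higher and 2 lower, with a median of -0.39, and the 7-library fit called 3 higher and 8 lower. The triglyceride enzymes Dgat1, Dgat2 and Pnpla2 were among the 8, Dgat1 at 98.6, 82.6 and 63.2 CPM against 179, 184, 189 and 185 CPM (log2 -1.18 ± 0.13, adjusted p = 0.00018 in the 7-library fit). Of 28 genes of sterol and fatty acid synthesis only the desaturase Fads1 was called, at 41, 38.8 and 52.5 CPM against 10.5, 10.6, 5.89 and 7.71 CPM (log2 2.35 ± 0.48, adjusted p = 0.0048). The median of the 28 was 97.9%, 91.2% and 56.7% of the AM mean in BM_day7.1 to BM_day7.3, and 26 of them lay below the AM mean in BM_day7.3. Srebf2, the master regulator of sterol synthesis, overlapped between groups.

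Fatty acid oxidation genes stood on the AM side as a group, by small amounts. Of 22 tested, 2 were called lower and none higher, with a median of -0.65. All AM libraries were above all BM libraries for 18, beside 14.2% of all genes. The 7-library fit called 14 lower and none higher, beside 9.22% of all genes called lower. Without BM_day7.3 it called 17 lower, beside 1794 of 15300 genes. Hadha, which runs the later steps of the mitochondrial cycle, was at 201, 181 and 152 CPM in the BM libraries and 293, 369, 348 and 311 CPM in the AM libraries (adjusted p = 0.017, adjusted p = 0.16 without BM_day7.3). Ucp2, an inner-membrane carrier, was at 1235, 1176 and 1036 CPM against 2005, 1876, 1906 and 1977 CPM (adjusted p = 0.017, adjusted p = 0.14 without BM_day7.3). Cpt1a, the entry enzyme, was at 231, 235 and 259.5 CPM against 338, 349.6, 361 and 320.5 CPM (log2 -0.51 ± 0.09, adjusted p = 0.0022 in the 7-library fit). Each of these has narrow, separate groups, and the log2 differences are below 1 in size.

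Peroxisomal and respiratory-chain genes leaned the same way. Of 30 peroxisomal genes, Acaa1a, a thiolase, was called lower at 225, 209.5 and 147 CPM against 338, 387, 374 and 384 CPM (adjusted p = 0.025, adjusted p = 0.27 without BM_day7.3), and the 7-library fit called 12 lower and none higher. Pex11a, which divides peroxisomes, was at 16, 16.7 and 7.31 CPM against 43.8, 50.1, 63 and 57.6 CPM (log2 -1.99 ± 0.27, adjusted p = 0.0012 in the 7-library fit). The peroxins Pex3, Pex5, Pex6, Pex7, Pex13 and Pex19, were within 0.26 of 0 on the log2 scale. Of 29 nuclear genes of oxidative phosphorylation, 0 were called in the 26-library fit by edgeR or by DESeq2, with 2 on the AM side at an unadjusted p under 0.05. The 7-library fit called 12 lower and none higher. Cycs (cytochrome c) was at 57.2, 62.8 and 58.6 CPM against 93.2, 88.2, 88.5 and 99.3 CPM (log2 -0.64 ± 0.09, adjusted p = 0.00062 in the 7-library fit). Among 24 glycolysis and hypoxia genes, 2 were called higher and none lower. Their median was 113%, 108% and 203% of the AM mean in BM_day7.1 to BM_day7.3. Slc2a1 (GLUT1), the glucose carrier, was at 120.5, 116 and 174 CPM against 60.8, 61.8, 53.5 and 62.7 CPM (adjusted p = 0.016, adjusted p = 0.19 without BM_day7.3), while Ldha and Aldoa were on the AM side and Gapdh, Pkm and Pgk1 overlapped. Vegfa, a hypoxia target and vascular growth factor, was at 176, 177 and 380.1 CPM in the BM libraries and 16.4, 14.7, 12.4 and 17.9 CPM in the AM libraries (adjusted p = 0.015, adjusted p = 0.11 without BM_day7.3); Egln3 and Ndrg1, other hypoxia targets, were called higher in the 7-library fit alone.

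Of 24 cell cycle genes 0 were called in the 26-library fit by edgeR or by DESeq2, and 0 reached an unadjusted p under 0.05. The 7-library fit called 7 lower and none higher, among them Ccnb1, Ccnb2, Tpx2 and Cdk1. Tpx2, a spindle protein, was at 11.4, 14.7 and 10.8 CPM against 35.1, 32.3, 21.5 and 23.9 CPM (log2 -1.20 ± 0.21, adjusted p = 0.0027 in the 7-library fit). Mki67, the proliferation antigen, overlapped between groups at 95.9, 108 and 105 CPM against 143, 132, 77.8 and 106 CPM. AM_day7.3 was the lowest AM library for both.

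**Figure D3:**
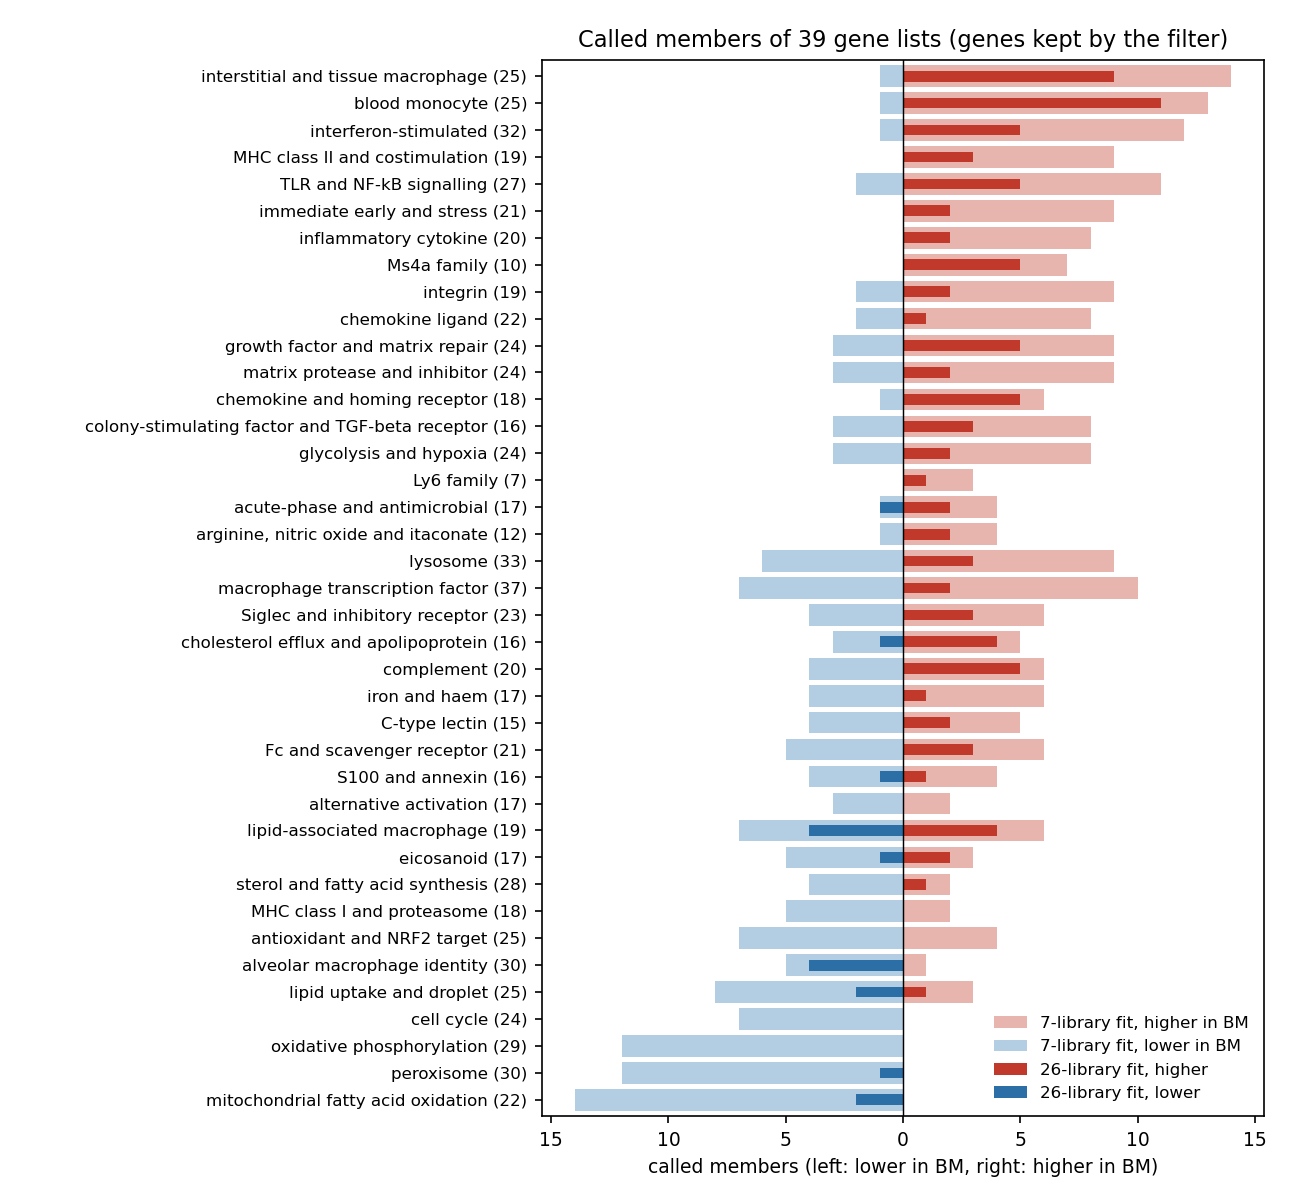
Members called higher (to the right) and lower (to the left) in BM for 39 gene lists, with pale bars for the fit of the 7 day 7 libraries and dark bars for the fit of all 26. Monocyte and tissue macrophage lists have the longest dark bars to the right, at 11 and 9 genes, and fatty acid oxidation the longest pale bar to the left, at 14.

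Sensors of microbes and the feedback on their signals were higher in BM for a few genes at large differences. Of 27 genes of Toll-like receptor and NF-kB signalling, 5 were called higher and none lower, with a median of 0.30. Tlr1, which pairs with Tlr2 to read bacterial lipopeptides, was at 38.8, 37.4 and 24.5 CPM in the BM libraries and 1.09, 0.389, 0.355 and 1.01 CPM in the AM libraries (log2 5.56 ± 0.56, adjusted p = 4.1e-07). Tlr9, the receptor for bacterial DNA, was at 30.9, 37.4 and 17.9 CPM against 4.65, 1.6, 1.06 and 1.83 CPM (adjusted p = 0.048, adjusted p = 0.083 without BM_day7.3). Neither overlapped between groups, whereas Tlr2 (1636, 1614 and 1343 CPM against 1594, 1905, 2055 and 1929 CPM) and the LPS receptor Tlr4 (109.9, 112 and 137 CPM against 134, 127, 143 and 138 CPM) did. Tlr8 was on the AM side, at 103, 119 and 90.2 CPM against 228, 216, 238 and 246 CPM (log2 -1.16 ± 0.11, adjusted p = 5.3e-05 in the 7-library fit). Socs3, which damps cytokine signals, was at 504, 473 and 466 CPM against 116, 74.5, 62.8 and 82 CPM (log2 2.52 ± 0.25, adjusted p = 4.1e-07), and the NF-kB partners Traf1 and Nfkbiz differed by 2.06 ± 0.35 and 1.64 ± 0.28. The NF-kB subunits Rela, Nfkb1 and Nfkb2 differed by 0.04, 0.22 and 0.05, without a call in either fit.

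The cytokines of acute LPS responses differed little between the groups at day 7. Tnf overlapped, at 198, 213 and 159.9 CPM against 207, 189, 216 and 205 CPM (log2 -0.10 ± 0.38, adjusted p = 1). Il1b was at 1895, 2010 and 1396 CPM against 1216, 1432, 1266 and 1276 CPM and Il6 at 115, 132 and 164 CPM against 90.9, 96.5, 95.5 and 101 CPM, differences of 0.45 and 0.51 that only the 7-library fit called. Csf1, the growth factor for macrophages, was the clear exception, at 36.7, 40.2 and 98 CPM in the BM libraries and 3.56, 6.96, 1.37 and 3.35 CPM in the AM libraries (log2 3.93 ± 0.73, adjusted p = 0.0018). Its receptor Csf1r was also called, at 1576, 1581 and 1310 CPM against 706, 819, 728 and 754 CPM (log2 0.99 ± 0.18, adjusted p = 0.0015). Il10 was called in the 7-library fit, at 10.6, 6.73 and 2.47 CPM against 0.799, 0.486, 1.12 and 2.13 CPM (adjusted p = 0.011 in the 7-library fit). Il12a had no read in any AM library and 1.24, 2.2 and 0.206 CPM in BM, at least 31.4-fold higher against a floor of 3 counts over the AM group. Of 20 cytokine genes, 2 were called higher and none lower.

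Enzymes that make lipid and small-molecule mediators were divided. Of 17 eicosanoid genes 2 were called higher and 1 lower, and of 12 genes of arginine, nitric oxide and itaconate metabolism 2 were called higher. Ptgs2 (COX-2), which starts prostaglandin synthesis, was at 432, 474 and 720.4 CPM in the BM libraries and 72.7, 43.5, 39.7 and 60.1 CPM in the AM libraries (log2 3.33 ± 0.55, adjusted p = 0.00079). Alox5, which starts leukotriene synthesis, was at 99.9, 89 and 36.9 CPM against 272, 258, 272 and 242 CPM (log2 -1.79 ± 0.36, adjusted p = 0.0036), lower in every BM library. Its partner Alox5ap and the leukotriene C4 synthase Ltc4s were on the AM side too, Ltc4s at 50.7, 56.1 and 15.3 CPM against 112, 134, 126 and 123 CPM (adjusted p = 0.052 in the 7-library fit). Pla2g7, which breaks down platelet-activating factor, was at 175, 159.9 and 188 CPM against 26.8, 18.1, 13.1 and 9.64 CPM (log2 3.36 ± 0.36, adjusted p = 1e-06). Acod1, which makes itaconate, was at 87.4, 81 and 158 CPM against 30.9, 17.4, 18.3 and 18.3 CPM (log2 2.35 ± 0.44, adjusted p = 0.0026), and Arg2, the mitochondrial arginase, at 17.8, 16.6 and 30.3 CPM against 3.49, 3.5, 1.78 and 2.94 CPM (adjusted p = 0.0054, adjusted p = 0.068 without BM_day7.3). Arg1 was spread widely in both groups, at 33, 25.1 and 182 CPM against 21.2, 0.292, 0.609 and 4.77 CPM (log2 3.55 ± 1.02, adjusted p = 0.098). Nos2 was at or below 7.22 CPM in every library. Of 17 genes of alternative activation 0 were called by edgeR in the 26-library fit, with 4 higher and 3 lower at an unadjusted p under 0.05, and DESeq2 called 1 higher and 3 lower.

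Among immediate early genes, Ier3 was at 426, 416 and 574 CPM against 102, 66.3, 76 and 85.7 CPM (log2 2.52 ± 0.29, adjusted p = 2.6e-06) and the phosphatase Dusp2 at 84.4, 78.7 and 26.1 CPM against 8.1, 4.62, 7.92 and 12.4 CPM (log2 2.94 ± 0.52, adjusted p = 0.0015), 2 called higher of 21 and none lower. Fos was at 2104, 2118 and 1934 CPM against 1287, 1382, 1519 and 1446 CPM (log2 0.54 ± 0.09, adjusted p = 0.002 in the 7-library fit), and the heat-shock genes Hspa1a and Hspa1b overlapped between groups.

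Single interferon-stimulated genes were higher in BM. Of 32 tested, 5 were called higher and none lower, with a median of 0.67, and the 7-library fit called 12 higher and 1 lower. The median level was 181%, 166% and 129% of the AM mean in BM_day7.1 to BM_day7.3. Ifi213 and Ifi209, DNA-binding proteins of 1 gene cluster on chromosome 1, differed most: Ifi213 was at 5.77, 6.65 and 2.68 CPM in the BM libraries and 0.145, 0, 0.102 and 0 CPM in the AM libraries (log2 6.04 ± 1.17, adjusted p = 0.0026), and Ifi209 at 53.2, 54.1 and 57.6 CPM against 11.3, 3.84, 7.76 and 8.02 CPM (log2 2.83 ± 0.43, adjusted p = 0.00016). Their neighbours in the cluster did not follow, with Ifi207 at 0.41, Ifi204 at 0.50, Ifi205 at 0.69 and Ifi211 at 0.04 on the log2 scale, none called. Irf7, which amplifies the interferon response, was at 41, 46.2 and 21.4 CPM against 9.63, 8.22, 9.18 and 7.41 CPM (log2 2.07 ± 0.32, adjusted p = 0.00018). The oligoadenylate synthase genes Oasl2 (2.01 ± 0.37) and Oas3 (1.86 ± 0.37) were called, and Oas2 (2.52, adjusted p = 0.0002 in the 7-library fit) in the 7-library fit. The guanylate-binding and immunity-related GTPases were not called and were divided. Gbp4 differed by 1.59 (adjusted p = 0.012 in the 7-library fit) and Iigp1 by 1.00. Gbp7 was at 51.4, 56 and 51.8 CPM against 48.4, 55, 52.4 and 54.8 CPM, Irgm1 at 27.8, 36 and 36.4 CPM against 26.1, 25.8, 23.6 and 28.8 CPM, and Gbp2 was on the AM side. Stat2 overlapped between groups.

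Several genes of MHC class II antigen presentation were higher in BM, and BM_day7.3 was the lowest BM library for each of the 3 called. Ciita, the activator of the class II genes, was at 158, 154 and 43 CPM in the BM libraries and 35.8, 14.7, 21.8 and 21.4 CPM in the AM libraries (log2 2.33 ± 0.56, adjusted p = 0.023). H2-Eb1 was at 2782, 2851 and 671 CPM against 516.5, 228, 278 and 313 CPM (log2 2.65 ± 0.68, adjusted p = 0.048), and H2-Aa, H2-Ab1 and Cd74 differed by 2.36, 2.03 and 1.81 with calls in the 7-library fit. In each of these, BM_day7.3 lay between the other BM libraries and AM, and no AM library reached it. The H2-DM and H2-O genes, which govern peptide loading, were not called in either fit. Of 19 genes of class II and costimulation, 3 were called higher and none lower; the third was the costimulator Cd86, at 83.9, 83.9 and 77.2 CPM against 24.1, 18.8, 21.2 and 18.1 CPM (log2 1.99 ± 0.41, adjusted p = 0.0048), close across the BM libraries. In BM_day7.3, 8 of the 19 lay below the AM mean. Ighm, the heavy chain of IgM in B cells, which also carry class II, moved with this order at 115, 121 and 9.27 CPM against 4.43, 3.94, 1.93 and 3.25 CPM (log2 4.59 ± 1.03, adjusted p = 0.015), so BM_day7.1 and BM_day7.2 held more of it than BM_day7.3. The part of B-cell RNA in the class II difference was not tested. Of 18 MHC class I and proteasome genes 0 were called by edgeR or by DESeq2 in the 26-library fit, with 1 higher and 2 lower at an unadjusted p under 0.05; H2-K1 was at 2653, 2730 and 3043 CPM against 2458, 2928, 2649 and 2653 CPM, and Psmb10, Psme1 and Psme2 were on the AM side in the 7-library fit.

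Surface receptors differed gene by gene within families. Of 10 Ms4a genes 5 were called higher and none lower, with a median of 3.68; they lie in 1 stretch of chromosome 19. Ms4a4a was at 31.7, 25.8 and 11.8 CPM in the BM libraries and 1.05, 0.438, 0.507 and 0.203 CPM in the AM libraries (log2 5.30 ± 0.93, adjusted p = 0.0013), Ms4a6b differed by 3.91 ± 0.47 and Ms4a6c by 1.36 ± 0.26. Ms4a8a, in the same stretch, was on the AM side, at 84, 83.4 and 13.3 CPM against 208, 196, 214 and 193 CPM (log2 -1.75 ± 0.85, adjusted p = 0.63). Of 15 C-type lectins 2 were called higher and none lower. Clec4a1 was at 93.7, 99.5 and 55.9 CPM against 7.16, 5.16, 7.86 and 5.99 CPM (log2 3.66 ± 0.48, adjusted p = 1.8e-05) and Clec4d at 320.4, 316 and 539.9 CPM against 92.9, 130.1, 99.4 and 97.5 CPM (adjusted p = 0.0039, adjusted p = 0.055 without BM_day7.3), while their neighbours on chromosome 6, Clec4a3 and Clec4a2, differed by -0.32 and -0.46 without a call. Clec4n (Dectin-2) and Clec7a (Dectin-1), receptors for fungal sugars, were on the AM side, Clec7a at 1664, 1710 and 1003 CPM against 2410, 2453, 2628 and 2536 CPM (log2 -0.79 ± 0.17, adjusted p = 0.0098 in the 7-library fit).

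Of 21 Fc and scavenger receptors 3 were called higher and none lower, and 1 of them was the inhibitory Fc receptor. Fcgr2b was at 828, 859 and 1032 CPM in the BM libraries and 320.1, 260.5, 224 and 269 CPM in the AM libraries (log2 1.75 ± 0.21, adjusted p = 5.1e-06). The activating receptors differed less, Fcgr1 by 0.35 and Fcgr3 by 0.44, and Fcgr4 was on the AM side at -0.85. Fcgrt, which recycles IgG, was at 229, 235 and 137 CPM against 764, 809.9, 936 and 846 CPM (log2 -2.07 ± 0.19, adjusted p = 0.00012 in the 7-library fit), and Axl, a receptor for dying cells, at 1098, 1097 and 602 CPM against 2009, 2145, 2243 and 2177 CPM (log2 -1.21 ± 0.20, adjusted p = 0.0036 in the 7-library fit). Both were lower in every BM library, and neither was called in the 26-library fit. Of 23 Siglec and inhibitory receptors 3 were called higher and none lower: Cd300a at 206, 202 and 325 CPM against 87, 98.2, 102 and 93.9 CPM (adjusted p = 0.012, adjusted p = 0.18 without BM_day7.3), and the near-identical pair Lilrb4a and Lilr4b, between which reads may be split, at 573, 635 and 780.5 CPM against 344, 342, 309 and 330.4 CPM (adjusted p = 0.22 without BM_day7.3) and 702, 803 and 944 CPM against 339.5, 347, 314 and 329.5 CPM. Siglec1, the sialoadhesin, was on the AM side at 159.5, 131 and 151 CPM against 388, 425, 400.3 and 429 CPM (log2 -1.49 ± 0.10, adjusted p = 6.4e-06 in the 7-library fit).

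Of 33 lysosomal genes 3 were called higher and none lower, with a median of 0.39. The groups did not overlap for 22 of them, 15 higher in BM and 7 higher in AM, beside 15.5% and 14.2% of all genes. In the 7-library fit 9 were called higher and 6 lower, beside 11.2% and 9.22% of all genes. Without BM_day7.3 that fit called 15 and 8, beside 1844 and 1794 of 15300 genes. The median was 103%, 111% and 165% of the AM mean in BM_day7.1 to BM_day7.3. Lgmn, the legumain protease, was at 591, 637 and 888 CPM in the BM libraries and 272, 253, 233 and 250.3 CPM in the AM libraries (log2 1.49 ± 0.23, adjusted p = 0.0002). Ctsb (cathepsin B) was at 2413, 2414 and 5826 CPM against 1641, 1633, 1530 and 1510 CPM (adjusted p = 0.0013, adjusted p = 0.063 without BM_day7.3), and Ctsd at 3538, 3332 and 9362 CPM against 4383, 3848, 3517 and 3762 CPM; both were far higher in BM_day7.3 than in the other 6 libraries. Of 17 iron and haem genes 1 was called. Slc11a1 (NRAMP1), which pumps iron out of the phagosome, was at 255, 256 and 439.6 CPM in the BM libraries and 15.9, 13, 5.99 and 11.6 CPM in the AM libraries (log2 4.77 ± 0.35, adjusted p = 2.8e-09). Its relative Slc11a2 was at 64.5, 53.8 and 85.3 CPM against 37.5, 27.2, 29.4 and 32.2 CPM (log2 1.09 ± 0.16, adjusted p = 0.00099 in the 7-library fit). Blvra, Hebp1, Ncoa4 and Slc48a1, which handle haem and ferritin, were on the AM side in the 7-library fit, and Hmox1 overlapped. Of 25 antioxidant genes 0 were called in the 26-library fit by edgeR or by DESeq2, with 3 higher and 2 lower at an unadjusted p under 0.05. The 7-library fit called 4 higher and 7 lower, beside 11.2% and 9.22% of all genes. Among the 4 was the cystine carrier Slc7a11 (119.9, 109.9 and 144 CPM against 58.1, 61.5, 48.1 and 61.9 CPM).

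Several secreted and repair genes were highest in BM_day7.3. Saa3, an acute-phase protein of macrophages, was at 159, 159 and 807 CPM in the BM libraries and 8.03, 4.67, 2.89 and 5.18 CPM in the AM libraries (log2 6.17 ± 0.91, adjusted p = 0.00024). Ecm1, an extracellular matrix protein, was at 175, 184 and 736 CPM against 38.9, 21.2, 16.2 and 27.8 CPM (log2 3.81 ± 0.58, adjusted p = 0.00029), and Thbs1 (thrombospondin), which activates TGF-beta, at 205, 207 and 535 CPM against 17.6, 57.3, 3.55 and 6.9 CPM (adjusted p = 0.037, adjusted p = 0.25 without BM_day7.3, adjusted p = 0.06 in the 7-library fit). Each had 1 BM library far above the other 2. Of 24 growth factor and matrix repair genes, 5 were called higher and none lower, with a median of 0.80; Tgfbi (adjusted p = 0.073 without BM_day7.3) and the proteoglycan Vcan were the others beside Vegfa. Igf1 and Hgf were called in the 7-library fit, Igf1 at 44.8, 46.2 and 62.2 CPM against 19.3, 15.2, 11.3 and 11.7 CPM (log2 1.81 ± 0.20, adjusted p = 0.00016 in the 7-library fit), and Pdgfc and Tgfb2 were on the AM side, Tgfb2 at 2.42, 2.61 and 0.824 CPM against 13, 10.8, 19.9 and 12.4 CPM (log2 -2.79 ± 0.39, adjusted p = 0.00064 in the 7-library fit). Areg, a repair factor for epithelium, was not called in either fit. Of 24 proteases and inhibitors, Plau (urokinase) was at 93.4, 105 and 58.6 CPM against 20.2, 10.4, 12.4 and 15.3 CPM (log2 2.55 ± 0.48, adjusted p = 0.0018) and Adam8 at 64.7, 65.2 and 193 CPM against 27.7, 14.5, 16.4 and 21.4 CPM (adjusted p = 0.0026, adjusted p = 0.068 without BM_day7.3). Mmp12 and Mmp14 were called higher in the 7-library fit. Of 17 acute-phase and antimicrobial genes 2 were called higher and 1 lower, and of 16 S100 and annexin genes 1 and 1. Slpi, an antiprotease of the airway, was called lower at 244, 226 and 118 CPM against 431, 680.2, 647 and 555 CPM (adjusted p = 0.046, adjusted p = 0.39 without BM_day7.3), and S100a6 and Anxa2 differed in opposite directions, by 1.87 ± 0.33 and -0.88 ± 0.17.

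Of 37 transcription factors 2 were called higher, Maf among them, and none lower. The factors shared by all macrophages differed little: Spi1 (PU.1) by -0.43, Cebpb by -0.22 and Irf8 by 0.29. Runx3 was at 79.2, 78.3 and 29.97 CPM against 6.69, 3.11, 4.11 and 3.15 CPM (log2 3.84 ± 0.43, adjusted p = 0.0012 in the 7-library fit) and Egr1 at 727, 747 and 745 CPM against 214, 203, 356 and 263 CPM (log2 1.51 ± 0.18, adjusted p = 0.00052 in the 7-library fit), separate between groups but not called in the 26-library fit. Growth factor receptors held 3 calls of 16 genes, all higher. Beside Csf1r, they were Csf3r, the G-CSF receptor, at 96, 85.9 and 209.9 CPM against 31.4, 33.3, 34.1 and 36.8 CPM (log2 1.94 ± 0.34, adjusted p = 0.00086), and Il10rb at 147, 155 and 166 CPM against 75.7, 70.4, 67.9 and 74 CPM (log2 1.12 ± 0.20, adjusted p = 0.0011). Csf3r is also a neutrophil marker, the only 1 of 14 called, and the neutrophil markers summed highest in BM_day7.3. The part of neutrophil RNA in its difference was not tested. The GM-CSF receptor chains Csf2ra, Csf2rb and Csf2rb2 were on the AM side by -0.28, -0.48 and -0.45, called lower in the 7-library fit. Smad3, which carries TGF-beta signals, was at 20.2, 20 and 6.28 CPM against 2.04, 0.292, 0.863 and 0.406 CPM (log2 4.01 ± 0.67, adjusted p = 0.0044 in the 7-library fit).

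Some of the largest differences lay outside every list. Cd72, a lectin of B cells and some macrophages, was at 244, 252 and 30.1 CPM in the BM libraries and 3.42, 7.05, 3.45 and 7.71 CPM in the AM libraries (log2 5.03 ± 0.88, adjusted p = 0.0015). Its BM levels followed those of Ighm, 2 high and 1 lower, and a part of B-cell RNA was not tested. Gdf3, a TGF-beta family ligand, was at 9.12, 8.53 and 2.16 CPM against 0, 0.195, 0 and 0 CPM (log2 6.86 ± 1.44, adjusted p = 0.0072), and Arhgef10l, a guanine nucleotide exchange factor, at 59.1, 60.9 and 51.2 CPM against 3.56, 0.73, 1.57 and 0.711 CPM (log2 5.06 ± 0.94, adjusted p = 0.0028). Tmeff1, a membrane protein, was at 24.5, 23.6 and 82.5 CPM against 2.14, 0.827, 0.609 and 1.12 CPM (adjusted p = 0.027, adjusted p = 0.18 without BM_day7.3), and Slc28a2, a purine nucleoside carrier, at 14.9, 14.7 and 11.9 CPM against 0.691, 0.243, 0.71 and 0 CPM (log2 4.97 ± 1.04, adjusted p = 0.0058). None of these 5 overlapped between groups.

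On the lower side, 2 genes were close to absent from BM. Plekha6, a protein of cell junctions, was at 2.94, 3.18 and 6.8 CPM in the BM libraries and 202, 187, 190.2 and 197 CPM in the AM libraries (log2 -5.50 ± 1.24, adjusted p = 0.014, adjusted p = 0.076 without BM_day7.3). Greb1, known as an oestrogen-induced gene, had no read in any BM library and was at 16.5, 10.3, 16.5 and 19.4 CPM in AM, at least 280-fold lower in BM against a floor of 3 counts over the BM group (adjusted p = 0.048, adjusted p = 0.21 without BM_day7.3). Plekha6 had 4 close AM values, while those of Greb1 ran from 10.3 to 19.4 CPM. Epcam, an epithelial adhesion molecule, was at 8.71, 9.14 and 2.58 CPM against 176, 153, 174 and 170.5 CPM (log2 -4.56 ± 0.39, adjusted p = 0.00049 in the 7-library fit); the surfactant gene Sftpc, at 29.7, 29.8 and 17.3 CPM against 22.5, 11.8, 10.7 and 14.5 CPM, overlapped between groups and was not higher in AM. Hip1r and Acap1, which act in vesicle traffic, were at 11, 6.94 and 4.43 CPM against 46, 52.7, 47.2 and 54.7 CPM (adjusted p = 0.012, adjusted p = 0.13 without BM_day7.3) and 8.24, 10.7 and 14.5 CPM against 64.8, 49, 48.6 and 63 CPM (log2 -2.34 ± 0.52, adjusted p = 0.01). Trf (transferrin) was at 1191, 1236 and 565 CPM against 2632, 2733, 2699 and 2625 CPM (adjusted p = 0.011, adjusted p = 0.13 without BM_day7.3), and Cd164 at 683, 722 and 467 CPM against 1270, 1487, 1473 and 1430 CPM (log2 -1.18 ± 0.22, adjusted p = 0.0015), 2 abundant genes with BM_day7.3 lowest.

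Markers of other cells were present at low summed levels. Neutrophil markers summed to 172 to 521 CPM in BM and 86.9 to 126 CPM in AM, with the maximum in BM_day7.3. S100a9 reached 108 CPM there, while Ly6g was at or below 0.309 CPM in all 7 libraries. The median of the 14 neutrophil markers tested was 167%, 134% and 862% of the AM mean in BM_day7.1 to BM_day7.3. In BM_day7.3, 0 of the 14 lay below the AM mean. T and NK cell markers summed to 55.7 to 90.7 against 8.02 to 16.1 CPM, with Cd3e at or below 0.763 CPM throughout. B and plasma cell markers summed to 28.2 to 214 against 17.4 to 43.8 CPM, the lowest BM sum in BM_day7.3. Dendritic cell markers overlapped, 123 to 199 against 131 to 170 CPM, and eosinophil, mast cell and basophil markers summed to 8.81 to 13.5 against 2.92 to 7.6 CPM. Epithelial markers summed to 103 to 145 against 235 to 291 CPM, and Epcam made up most of the AM sum. The median over the 14 epithelial markers was 0.38 on the log2 scale, on the BM side. Endothelial and fibroblast markers spanned 195 to 318 against 84.9 to 583 CPM, the last in AM_day7.2 with Col1a1 at 233 CPM, and erythroid and platelet markers 53.3 to 58.8 against 11.7 to 40.2 CPM. Their part in the differences above was not tested.

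The difference between recruited and resident cells was set against that at days 3 and 1, which share no library with day 7. Between day 7 and day 3 the difference itself changed for 62 of 17143 genes (0.362%), 58 toward higher in BM and 4 toward lower. That count was 17 without AM_day7.3 or without AM_day7.4, 115 without BM_day3.2, and 600 by DESeq2 (422 and 178). Itgam shows how: it was at 271 to 447 CPM in AM at day 3 and 401 to 919 CPM in BM, and at day 7 at 10.2 to 23.8 CPM in AM and 311 to 591 CPM in BM. The BM ranges of the 2 days overlapped and the AM ranges did not. AM without LPS was at 0.48 to 1.99 CPM. Ly6c2 was at 339 to 1189 CPM in AM at day 3 and 0.581 to 1.52 CPM at day 7, and in BM at 609 to 1659 CPM and 26.6 to 80.5 CPM. Slc11a1, Gpnmb and Saa3 were among the other genes whose difference was larger at day 7.

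Between day 7 and day 1 the difference changed for 1292 genes (7.54%), 790 toward higher in BM (4.61%) and 502 toward lower (2.93%). Lpl was at 166 to 284 CPM in BM at day 1, 377 to 907 CPM at day 3 and 815 to 2369 CPM at day 7, with no overlap between day 1 and day 7, and its distance to AM was 2.94 smaller on the log2 scale at day 7 (adjusted p = 1.7e-05). Chil3 in BM was at 425 to 734, 1133 to 3613 and 1729 to 11011 CPM on the 3 days, and the distance to AM was 3.08 smaller at day 7 than at day 1 (adjusted p = 0.00039). Apoe in BM was at 439 to 1045, 6824 to 20736 and 8700 to 26340 CPM, and C1qa at 195 to 352, 498 to 1990 and 625 to 807 CPM. The day 3 groups are not of 1 sex or of 1 library number range. BM libraries of day 1 carry a label prefix of their own, and some of their numbers recur at day 7. The day cannot be told apart in full from sex, prefix and library numbers.

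**Figure D4:**
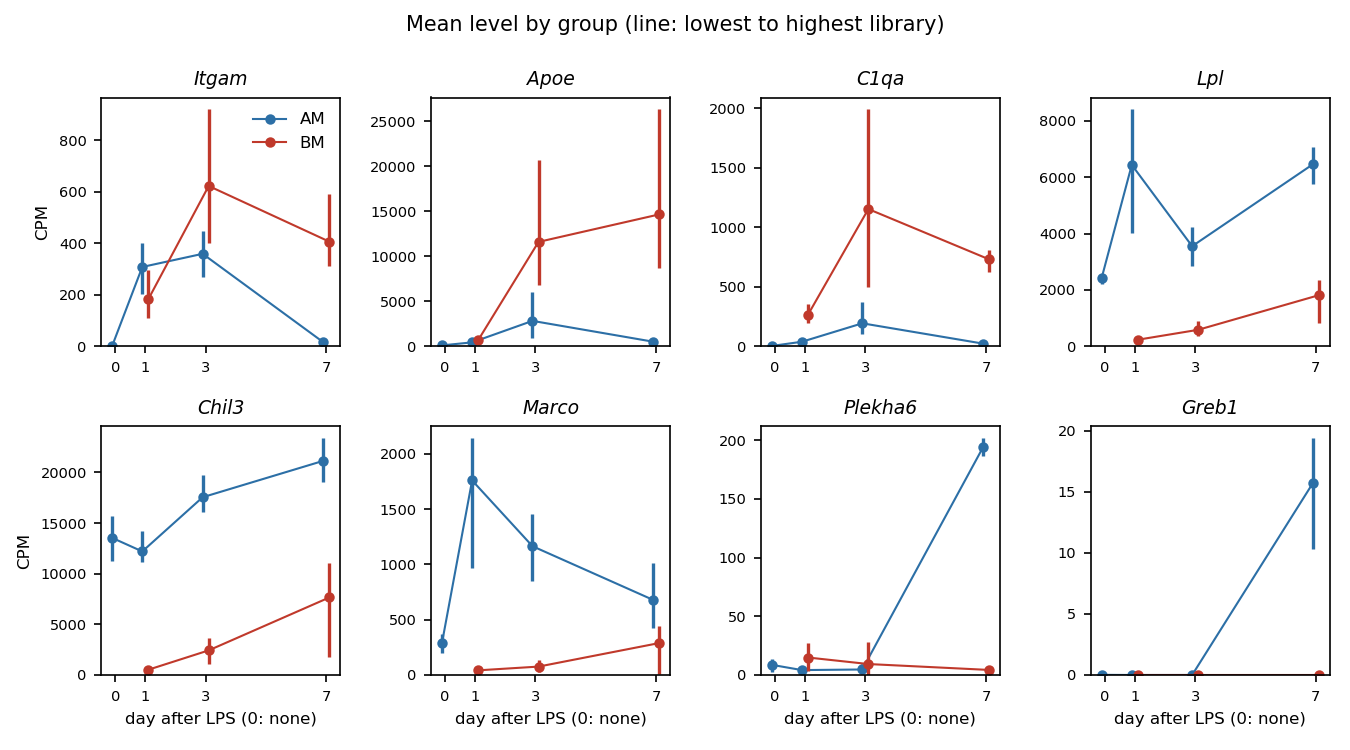
Mean level of 8 genes in AM and BM on each day (CPM, linear axis), with bars from the lowest to the highest library. Itgam separates the groups at day 7 with a low AM level, and Plekha6 and Greb1 are high in AM at day 7 alone. Lpl and Chil3 in BM reach a larger share of the AM level at day 7 than at day 1.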

How the data were processed

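The deposited values are raw counts of reads per gene, 1 column for each of 26 libraries. Per the submitters' processing notes, FastQC 0.11.9, Trimmomatic 0.39, HISAT2 2.1.0 and featureCounts 2.0.0 were used with GRCm38. The strand setting and annotation release are not given in the sources used here, so overlapping genes may share reads. Gene symbols came from GENCODE M21. Genes were filtered with filterByExpr (17143 kept, 99.9% of counts), scaled by TMM and fitted with edgeR 4.0.16 (quasi-likelihood, 7 groups, 26 libraries, R 4.3.3), with Benjamini-Hochberg adjustment over all genes kept. The standard error is the log2 difference divided by the root of F. The procedure was tested on simulated counts with less spread than the 26-library fit found (common biological coefficient of variation 0.978). That test does not show how the procedure does at the spread of these data. Alternatives were DESeq2 1.42.0, other scalings and filters, replicate blocks, left-out libraries and the 7 libraries fitted alone.

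The 39 gene lists, 8 lists of other cells, and the libraries compared were chosen with earlier results of these data known. Named genes are up to 6 per list, the 15 largest rises and falls with a mean of at least 5 CPM, the 10 most abundant called genes each way, and a fixed set; other members are named as examples of their list, chosen after their values were seen. Some genes are counted in the lists but not reported here by name.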

Additional observations from a re-analysis of the deposited data

Results flagged for a closer look

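Of the 152 named genes, 5 had 1 AM library at day 7 far from the other 3, a gap that chance gives in about 1 in 20 groups. These were Itga4 (115 CPM in AM_day7.4, high), Ly6e (427 CPM in AM_day7.3, low), Acod1 (30.9 CPM in AM_day7.1, high), Gdf3 (0.195 CPM in AM_day7.2, high) and Cd9 (2658 CPM in AM_day7.1, low). Itga4, Acod1, Gdf3 and Cd9 nevertheless did not overlap between BM and AM.

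For 19 of the named genes reported here the difference between BM and AM was not the same at day 7 as at day 3, by edgeR's test of that change on the log2 scale. The change exceeded 3 for Saa3 (5.64, adjusted p = 0.031), Ly6c2 (4.73, adjusted p = 0.004), F13a1 (4.71, adjusted p = 0.044), C3ar1 (3.99, adjusted p = 0.048), Itgam (3.86, adjusted p = 0.00096), Slc11a1 (3.57, adjusted p = 0.00012), Gpnmb (3.23, adjusted p = 0.0061) and Tlr1 (3.17, adjusted p = 0.037). It was smaller for the transcription factor Maf (2.78, adjusted p = 0.037), Ccl6 (2.58, adjusted p = 0.00096), Wfdc17 (2.46, adjusted p = 0.022), Pla2g7 (2.44, adjusted p = 0.021), Ier3 (1.94, adjusted p = 0.03), Nfkbiz (1.72, adjusted p = 0.048), Lilr4b (1.58, adjusted p = 0.022), Socs3 (1.54, adjusted p = 0.048) and Cd9 (1.31, adjusted p = 0.048). It was toward lower in BM for Hip1r (-3.90, adjusted p = 0.037) and Acap1 (-3.37, adjusted p = 0.032).

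For 7 of 21 genes looked at, the signed log2 difference at day 7 lay above that at day 1, less negative for Lpl, Chil3 and Marco: Itgam by 5.40 (adjusted p = 6e-07), Apoe by 4.18 (adjusted p = 0.00042), Marco by 4.15 (adjusted p = 0.0061), Ly6c2 by 3.47 (adjusted p = 0.0031), Chil3 by 3.08 (adjusted p = 0.00039), Lpl by 2.94 (adjusted p = 1.7e-05) and C1qa by 2.18 (adjusted p = 0.023).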

How the results depend on the processing

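The count of 303 called genes was 2948 with the 7 day 7 libraries alone (14454 genes tested against 17143), 2606 with the day 7 and day 0 groups alone (15694 genes tested, added after seeing the data), 612 without BM_day1.3 and BM_day3.1, 604 by DESeq2 and 200 (152 higher, 48 lower) with BM_day7.3 as the only BM library, where a lone library is assumed to vary like the other groups. Leaving out 1 day 7 library gave 200 to 235, lowest without BM_day7.3. Summing BM_day7.1 and BM_day7.2 into 1 library (also added after seeing the data) gave 233, and other scalings, filters and blocks gave 232 to 337. The 7-library count of 2948 ranged from 2104 to 3638 with 1 library left out and was 3563 by DESeq2.

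The 62 genes whose difference changed from day 3 became 600 by DESeq2, 104 without BM_day1.3 and BM_day3.1, 323 with those groups alone, 40 with DESeq2's size factors, 36 with no filter, 23 with the library number range as a term and 21 with a replicate block on the numbers of the titles. Leaving out 1 library gave 17 (without AM_day7.3 or AM_day7.4) to 115 (without BM_day3.2). The 1292 from day 1 became 2611 without BM_day1.3 and BM_day3.1, 2302 by DESeq2, 785 with the library number range and 736 with a replicate block on the numbers of the descriptions. Leaving out 1 library gave 836 (without BM_day7.2) to 1513 (without BM_day1.3). The cause of these shifts was not tested.

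Replicate numbers gave no sign of a pairing of the day 7 libraries, where deviations of same-numbered libraries from their group means correlated at -0.0135 to 0.0383. A low correlation over all genes kept cannot exclude that same-numbered libraries came from the same mice. With a replicate block the day 7 count was 243 by the numbers of the titles and 284 by those of the descriptions.

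Of the 108 named genes called, 40 kept the call under every setting, not counting the 2 added after seeing the data, and 68 lost it under at least 1. Among these 108 genes 0 changed direction under any setting. With BM_day7.3 as the only BM library 50 calls ended, and leaving it out ended 34. With the library number range as a term, 31 ended. The 9950513 to 27513205 counts per day 7 library limit genes near 1 CPM, whose standard errors often exceed 1 on the log2 scale.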

Other observations

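Plekha6 and Greb1 were high in 1 of the 7 groups of the series. Plekha6 was at 187 to 202 CPM in AM at day 7 and at 0 to 27.7 CPM across the other 6 groups, AM without LPS included (2.51 to 13.6 CPM). Greb1 was at 10.3 to 19.4 CPM in AM at day 7 and at most 0.0376 CPM in any library of the other groups. The day 7 AM libraries also differ from the other AM libraries in their library numbers, and that cannot be told apart from the day.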
